A study of Mus musculus with 2 samples.

Results

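The mitochondrial carriers were described in 2 RNA sequencing libraries of mouse heart, replicate 1 and replicate 2, both taken on embryonic day 12.5 from mixed C57BL/6 x 129S6 animals with no treatment. A carrier gene was taken as any protein-coding row whose symbol is Slc25a followed by a number, or Ucp1, Ucp2 or Ucp3. This rule used names alone and found 47 of the 22382 protein-coding rows, among 37620 rows in all. Both libraries belong to 1 group and there is no second condition, so no test between conditions was possible. The labels give no genotype and do not say whether the libraries came from separate embryos, pools or litters, so the spread between them may be technical. Levels are in FPKM, fragments scaled to transcript length and library size, as the authors deposited them. Each level is therefore per length, and levels of different genes are set side by side here. Bias between genes, as from reads that match several genes, was not measured.

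Mitochondrial carriers are proteins of the inner mitochondrial membrane, built from repeats of 1 ancestral module, that move nucleotides, phosphate, metabolites and cofactors between the cytosol and the matrix. The ADP/ATP carriers export the ATP made by oxidative phosphorylation, and uncoupling proteins are best known from Ucp1, which lets protons re-enter the matrix and so makes heat in brown fat. A few relatives sit elsewhere, among them Slc25a17 in peroxisomes and Slc25a46 in the outer mitochondrial membrane. In the heart, a tissue packed with mitochondria, the family is known above all for ATP export and for the entry of phosphate and fuels.

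The family was broadly present, and a few genes held most of its RNA. Of the 47 carriers, 34 reached 1 FPKM in both libraries, which is 72.3%, beside 52.2% of all protein-coding rows (11690 of 22382). The same 34 was the count in each library alone. The median level was 6.92 FPKM over the carriers, beside 1.61 FPKM over all protein-coding rows. Together the carriers summed to 2137 FPKM in replicate 1 and 2097 FPKM in replicate 2, or 0.549 ± 0.00164% of the FPKM of all rows (SD, n = 2). The 3 highest genes, Slc25a4, Slc25a3 and Slc25a5, held 70.0% of the family sum in replicate 1 and 69.3% in replicate 2. The corresponding shares of the leading 10 were 88.2% and 87.9%. Mean levels were 100 FPKM or more for 3 carriers (6.38%, beside 2.16% of protein-coding rows) and between 10 and 100 FPKM for 16 (34.0%, beside 25.2%). A further 15 lay between 1 and 10 FPKM (31.9%, beside 25.3%). Another 6 lay between 0.1 and 1 FPKM (12.8%, beside 13.2%), and 6 above 0 but under 0.1 FPKM (12.8%, beside 13.7%). The carrier just above the limit of 1 FPKM was Slc25a29, with a mean of 1.24 FPKM, and the one just under it Slc25a45, with 0.827 FPKM. Slc25a41 was listed at 0 in both libraries, as were 4567 protein-coding rows (20.4%) in all. Such a 0 may come from an estimate that failed, and is no evidence that the RNA was missing.

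**Figure D1:**
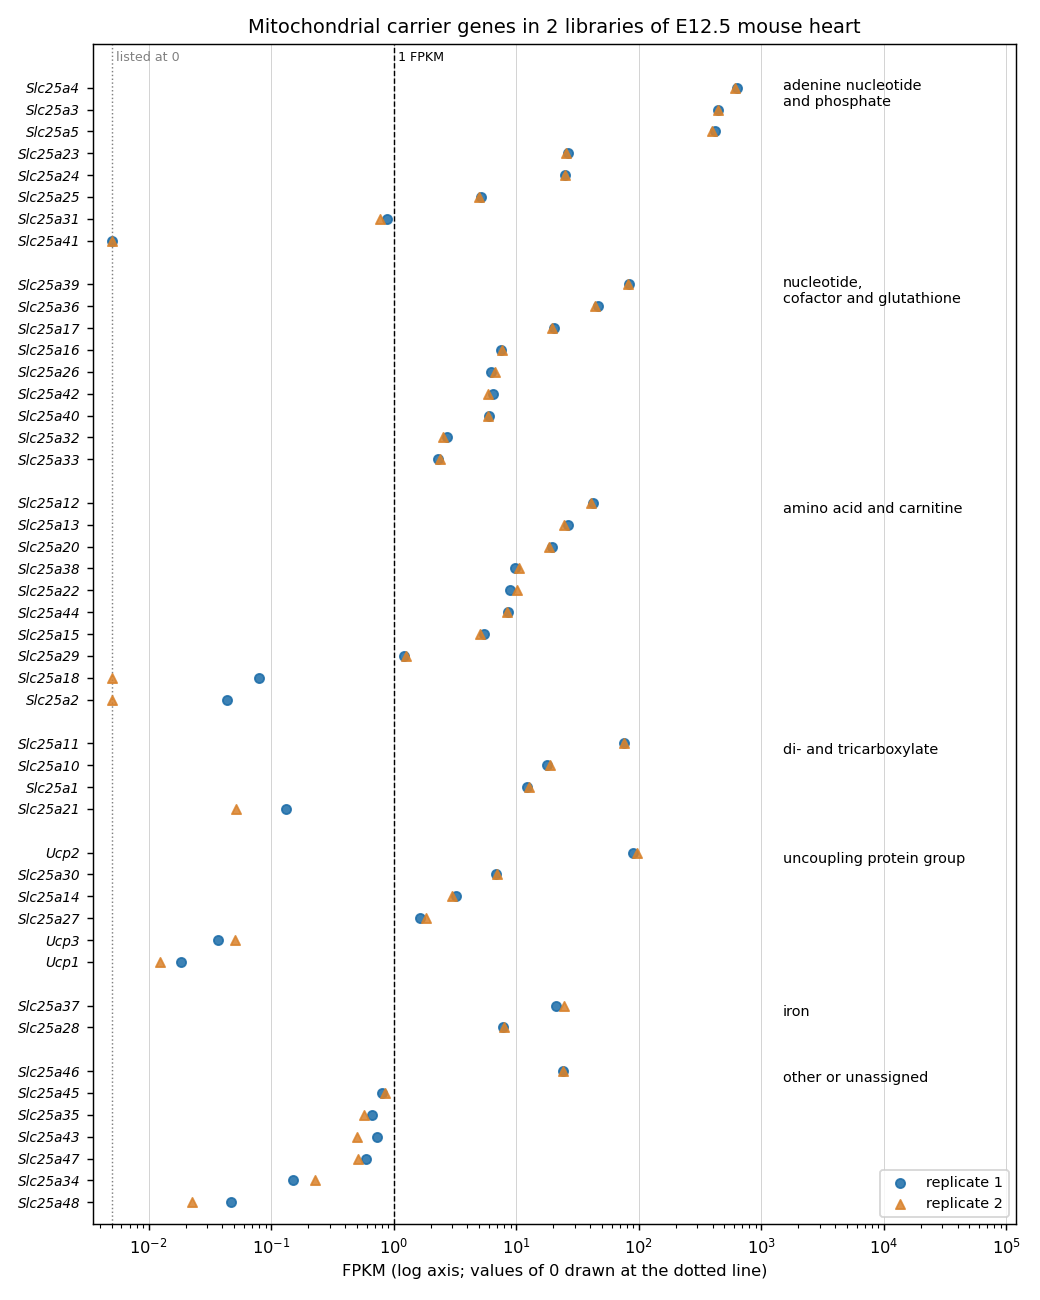
FPKM of 46 of the 47 mitochondrial carrier genes (log axis) in replicate 1 (circles) and replicate 2 (triangles), grouped by role. The 3 highest genes lie between 400 and 636 FPKM in either library, 33 of those drawn lie right of the dashed line at 1 FPKM in both, and values of 0 are drawn at the dotted line.

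The libraries can be placed among tissues by their markers. All 5 cardiomyocyte markers were detected, with mean levels between 208 FPKM (Myh6) and 4314 FPKM (Actc1). All 9 red cell markers found in the files were detected too, led by the embryonic globin Hbb-y, and they summed to 24057 FPKM in replicate 1 and 23219 FPKM in replicate 2. A bulk library averages over all its cells, so fewer cells of a type and less RNA per cell cannot be told apart. The summed FPKM of all rows was 388230 in replicate 1 and 382561 in replicate 2. How many fragments lie behind these sums is unknown. Among 2881 genes under 0.1 FPKM in both libraries, the most frequent ratio of replicate 2 to replicate 1 was 1.33, the ratio in what a single fragment was worth, so replicate 1 was the deeper library.

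Carriers of adenine nucleotides and phosphate, which supply the ATP synthase and export its product, took by far the greatest share. The 8 genes of this role group held 72.7% of the family sum in replicate 1 and 72.0% in replicate 2. The mean was 72.3 ± 0.490% (SD, n = 2), and 6 of the 8 were detected. Counts of detected genes in this and the other role groups stand beside 72.3% of all carriers and 52.2% of protein-coding rows. The groups are small, and none was tested against these shares. Slc25a4, the ADP/ATP carrier typical of heart and skeletal muscle (chromosome 8, 47292151 to 47296638, minus strand, mm9), had 636 FPKM in replicate 1 and 612 FPKM in replicate 2. It ranked 53rd of the protein-coding rows. Slc25a3, the phosphate carrier (chromosome 10, 90579319 to 90586804, minus strand), had 441 and 442 FPKM and ranked 80th. Slc25a5, the ADP/ATP carrier typical of dividing cells (chromosome X, 34335646 to 34338802, plus strand), had 419 and 400 FPKM and ranked 88th. Each of these 3 genes was above every other carrier in both libraries.

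Both widely used ADP/ATP carriers were thus at high levels, and Slc25a4 made up 60.3% of their sum in replicate 1 and 60.5% in replicate 2. The log2 ratio of Slc25a4 to Slc25a5 was 0.61 ± 0.01 (SD, n = 2). The size of such ratios was set against 0.22 log2 units, the 95th percentile of how far the libraries lay apart for a single gene, in either direction, over 11800 protein-coding rows with a mean of 1 FPKM or more. This spread is that of the same gene between libraries, and does not measure bias between different genes within a library. All ratios between genes are log2 of FPKM plus a pseudocount of 1, which understates differences that involve low genes. Slc25a5 has a near-identical pseudogene, Gm5560 (98.3% identity over 887 bases), listed at 3.14 FPKM in replicate 1 and 4.70 FPKM in replicate 2, so its level is uncertain to the extent that reads were divided between them. No copy of that kind was found for Slc25a4 or Slc25a3. Slc25a31, the ADP/ATP carrier of male germ cells, had 0.877 FPKM in replicate 1 and 0.771 FPKM in replicate 2. None of 5 germ cell markers reached 1 FPKM in both libraries, and the spermatid gene Tnp1 was listed at 0.

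The promoter windows of Slc25a4 and Slc25a5 are shown because these were the highest ADP/ATP carriers, at ranks 1 and 3 in the family. They run from 250 bases before to 50 after the RefSeq start, 5′ to 3′ on the gene's strand, on GRCm38.p6 (chr8:46211013-46211312, minus strand, and chrX:36795347-36795646, plus strand), a later build than that of the files. Capitals mark CpG dinucleotides, of which Slc25a4 has 25 and Slc25a5 has 18.
Slc25a4: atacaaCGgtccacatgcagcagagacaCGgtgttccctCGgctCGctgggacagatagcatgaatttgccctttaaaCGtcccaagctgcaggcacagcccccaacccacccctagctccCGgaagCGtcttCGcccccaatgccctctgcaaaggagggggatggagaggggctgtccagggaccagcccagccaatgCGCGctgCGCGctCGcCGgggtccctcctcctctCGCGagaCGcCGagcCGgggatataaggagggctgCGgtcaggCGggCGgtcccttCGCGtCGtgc
Slc25a5: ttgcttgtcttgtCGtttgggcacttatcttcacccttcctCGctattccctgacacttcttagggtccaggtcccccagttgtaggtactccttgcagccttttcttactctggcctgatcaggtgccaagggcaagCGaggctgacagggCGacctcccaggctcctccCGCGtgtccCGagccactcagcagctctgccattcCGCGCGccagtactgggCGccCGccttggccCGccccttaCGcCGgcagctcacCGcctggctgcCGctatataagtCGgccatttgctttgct

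The ATP-Mg/phosphate carriers, which load the matrix with adenine nucleotides and are regulated by calcium, lay well below the leading trio. Slc25a23 had 26.5 FPKM in replicate 1 and 25.3 FPKM in replicate 2, and Slc25a24 had 24.8 and 24.9 FPKM. Their log2 ratio, Slc25a24 over Slc25a23, was -0.06 ± 0.05 (SD, n = 2), within the spread between libraries, whereas the other 23 of 24 pairs of carriers examined were past it in the mean of both libraries, or 22 of 23 without the pair of Slc25a23 and Slc25a41. Of all pairs of protein-coding rows above 0 FPKM, 90.2% were past it, so the count says nothing particular about carriers, and the size of each ratio is the datum. Slc25a25 was lower, at 5.19 and 4.95 FPKM (log2 ratio of Slc25a24 to Slc25a25 2.09 ± 0.04). Slc25a41, a relative that lacks the calcium-binding domain, was the gene listed at 0, although it lies 2056 bases from Slc25a23 on the same strand of chromosome 17.

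**Figure D2:**
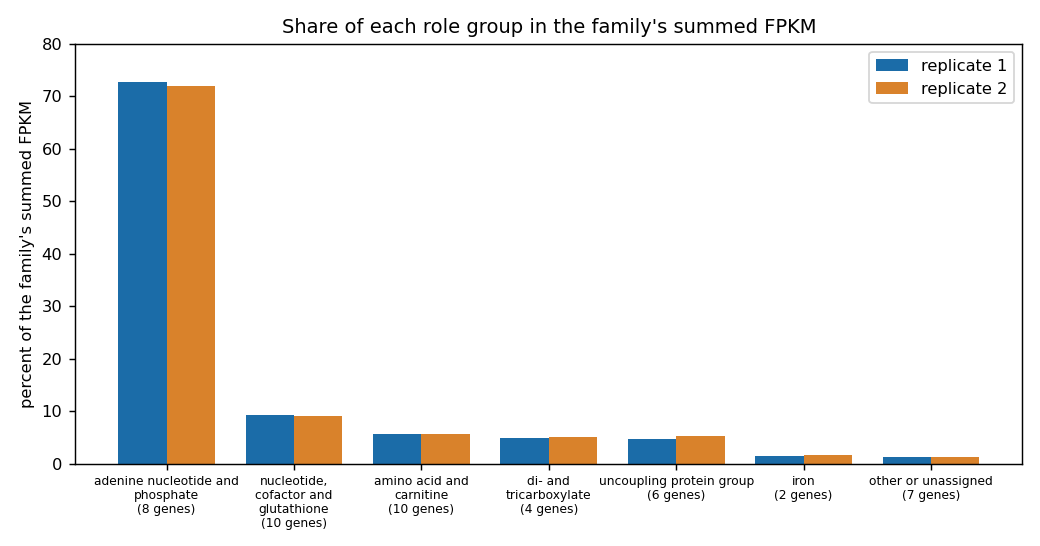
Percent of the summed FPKM of the 47 carriers held by each role group, in replicate 1 (left bars) and replicate 2 (right bars). Carriers of adenine nucleotides and phosphate hold 72.7% and 72.0%, and no other group reaches 10%.

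Among carriers of di- and tricarboxylates, which link the citric acid cycle to the cytosol, 3 of 4 were detected and the oxoglutarate carrier led. Slc25a11, the oxoglutarate/malate carrier of the malate-aspartate shuttle, had 75.9 FPKM in replicate 1 and 76.2 FPKM in replicate 2. Its annotated span overlaps that of Rnf167 on the other strand by 245 bases, and strand use in counting is not given in the sources used here, so part of its signal could not be told apart from that of Rnf167 (19.8 FPKM in replicate 1 and 18.9 FPKM in replicate 2). Slc25a10, the dicarboxylate carrier, had 17.8 FPKM in replicate 1 and 18.97 FPKM in replicate 2, and Slc25a1, the citrate carrier that feeds fatty acid and sterol synthesis, had 12.3 and 12.6 FPKM. The order of these 3 genes was the same in both libraries, and the log2 ratios of Slc25a11 to Slc25a10 (1.99 ± 0.06) and of Slc25a1 to Slc25a10 (-0.53 ± 0.03) were past the spread. Slc25a21, the carrier of oxoadipate and related acids, stood at 0.133 FPKM in replicate 1 and 0.0516 FPKM in replicate 2.

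Carriers of amino acids and carnitine held 5.70 ± 0.0108% of the family sum (SD, n = 2), with 8 of 10 genes detected. Both aspartate/glutamate carriers, the other arm of the malate-aspartate shuttle, were present. Slc25a12, the form of heart, muscle and brain, had 42.0 FPKM in replicate 1 and 40.7 FPKM in replicate 2. Slc25a13, or citrin, the form best known from liver, had 26.6 and 24.6 FPKM. Slc25a12 made up 61.2% of the sum of the 2 genes in replicate 1 and 62.3% in replicate 2 (log2 ratio 0.67 ± 0.04). The shuttle's enzymes were higher than both carriers, with mean levels of 349 FPKM for Mdh1, 301 FPKM for Mdh2, 92.7 FPKM for Got2 and 71.0 FPKM for Got1. These enzymes catalyse the malate and aspartate steps on either side of the membrane.

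Slc25a20, which carries acylcarnitines into the matrix for fatty acid oxidation, had 19.5 FPKM in replicate 1 and 18.7 FPKM in replicate 2. The enzymes before it stood at 60.1 ± 2.18 FPKM for Cpt1b and 9.85 ± 0.618 FPKM for Cpt1a. The enzyme after it, Cpt2, stood at 22.6 ± 0.0772 FPKM. Slc25a29, a carrier of basic amino acids first described as carnitine transporter-like, was just above the limit at 1.22 and 1.27 FPKM. Slc25a22, a glutamate carrier, had 8.82 FPKM in replicate 1 and 10.2 FPKM in replicate 2. The other glutamate carrier, Slc25a18, had 0.0799 FPKM in replicate 1 and was listed at 0 in replicate 2. The ornithine carriers were as unequal, with Slc25a15 at 5.41 and 5.04 FPKM, and Slc25a2 at 0.0437 FPKM in replicate 1 and listed at 0 in replicate 2. Slc25a44, a carrier of branched-chain amino acids, had 8.50 and 8.34 FPKM. In each of these pairs of like substrate, glutamate and ornithine, 1 gene supplied nearly all of the RNA.

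All 10 carriers of nucleotides, cofactors and glutathione were detected, and they held 9.22 ± 0.123% of the family sum (SD, n = 2). Slc25a39, a carrier of glutathione, had 83.3 FPKM in replicate 1 and 81.2 FPKM in replicate 2, the fifth highest level of the family. Its paralogue Slc25a40 had 5.97 and 5.93 FPKM, so that Slc25a39 made up 93.3% of their sum in replicate 1 and 93.2% in replicate 2. Of the pyrimidine nucleotide carriers, Slc25a36 had 46.4 and 43.7 FPKM and Slc25a33 had 2.32 and 2.37 FPKM (log2 ratio of Slc25a33 to Slc25a36 -3.78 ± 0.08). The peroxisomal carrier Slc25a17 averaged 20.03 ± 0.664 FPKM (SD, n = 2).

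The other cofactor carriers lay lower. Slc25a26, which imports the methyl donor S-adenosylmethionine, averaged 6.44 ± 0.341 FPKM. Slc25a32, linked to folate and flavin import, averaged 2.63 ± 0.164 FPKM (SD, n = 2 each). Slc25a42, the coenzyme A carrier, had 6.51 FPKM in replicate 1 and 5.88 FPKM in replicate 2, and Slc25a16, also linked to coenzyme A, had 7.47 and 7.62 FPKM. The log2 ratio of Slc25a16 to Slc25a42 was 0.25 ± 0.11 in the mean, just past the spread of 0.22, but 0.17 in replicate 1 alone, within it. These 2 genes are therefore not separated in both libraries.

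Both iron carriers, the mitoferrins, were detected. Slc25a37, mitoferrin 1, the form needed for heme in developing red cells, had 20.97 FPKM in replicate 1 and 24.6 FPKM in replicate 2, the widest relative difference between libraries among carriers of 10 FPKM or more (log2 replicate 1 over replicate 2 -0.22). Slc25a28, mitoferrin 2, which is used more widely, had 7.81 and 7.92 FPKM. Slc25a37 made up 72.9% of the pair in replicate 1 and 75.7% in replicate 2 (log2 ratio 1.42 ± 0.14). Slc25a38, which supplies glycine for the first step of heme synthesis, had 9.75 FPKM in replicate 1 and 10.5 FPKM in replicate 2. Of the red cell markers, Hbb-bh1 (522 and 688 FPKM) and Hba-x (2319 and 2661 FPKM) were higher in replicate 2, whereas Hbb-y (16536 and 15387 FPKM) and Hba-a1 (4530 and 4339 FPKM) were higher in replicate 1. The part of red cells in the mitoferrin levels was not tested. All 7 genes of a fixed list of heme synthesis in mitochondria were detected, beside 52.2% of all protein-coding rows. This list was chosen with earlier results of these data known, and its count was not tested against that share. The 7 genes ranged from Ppox at 14.8 ± 0.621 FPKM to Tmem14c at 77.1 ± 1.71 FPKM.

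Of the uncoupling protein group, Ucp2 alone was high. Ucp2, a widely expressed member whose transport role is debated, had 89.0 FPKM in replicate 1 and 97.6 FPKM in replicate 2 and was the fourth highest carrier. Ucp3, the form of skeletal muscle and adult heart, had 0.0369 and 0.0508 FPKM, and Ucp1, the heat-making form of brown fat, had 0.0185 and 0.0124 FPKM. Ucp2 was the highest of the 6 members in each library. Of 5 brown fat markers, 2 were detected, Fabp4 (7.13 and 4.68 FPKM) and Prdm16 (2.10 and 1.99 FPKM), and Adipoq was listed at 0 in replicate 1 and at 0.0549 FPKM in replicate 2. The 3 more distant members were between these extremes, with Slc25a30 at 6.88 and 6.96 FPKM, Slc25a14 at 3.25 and 2.97 FPKM and Slc25a27, known from the nervous system, at 1.63 and 1.83 FPKM. Their order was the same in both libraries.

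**Figure D3:**
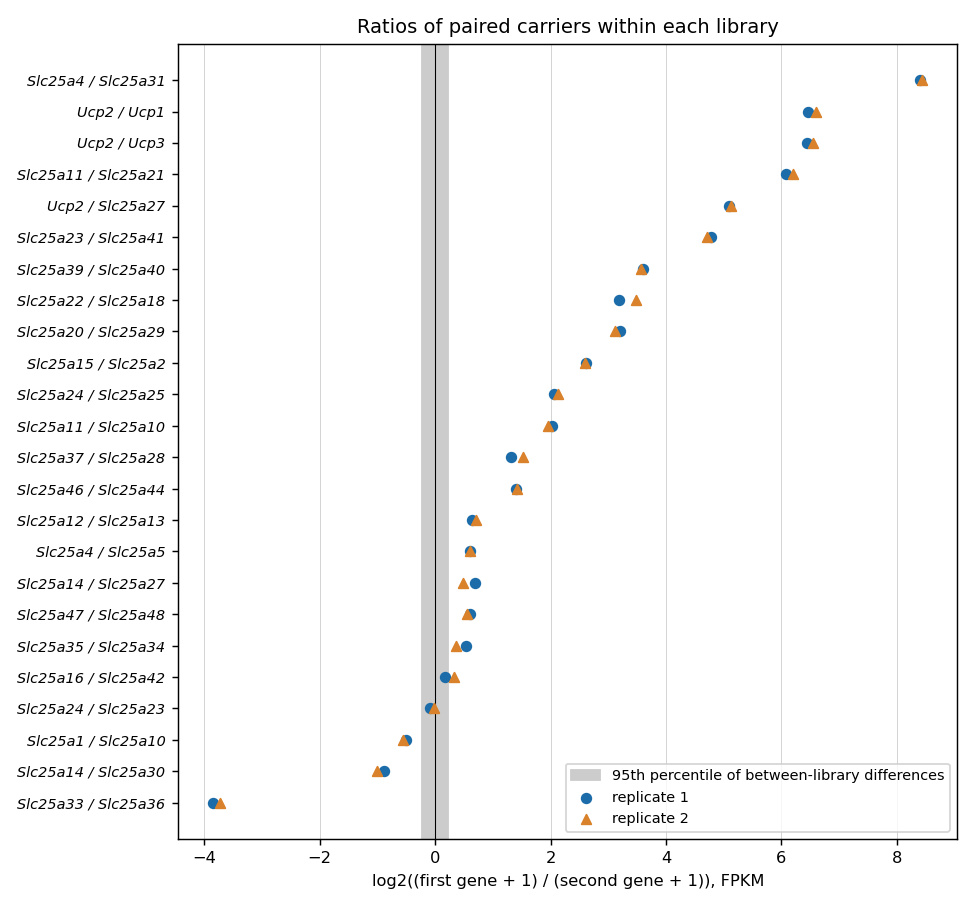
Log2 ratio of the first to the second gene of 24 pairs of carriers (FPKM plus 1), in replicate 1 (circles) and replicate 2 (triangles). The grey band spans 0.22 log2 units on either side of 0. Slc25a24 and Slc25a23 lie within it in both libraries, and Slc25a16 over Slc25a42 lies within it in replicate 1.

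Ucp2 and Ucp3 are neighbours on chromosome 7, in the same orientation with 6904 bases and no other row between them (Ucp3 from 107621499 to 107634941 and Ucp2 from 107641846 to 107650529, plus strand, mm9). Their mean levels differed 2129-fold in FPKM, and the log2 ratio of Ucp2 to Ucp3 was 6.50 ± 0.08 with the pseudocount. The size of the fold is uncertain, because Ucp3 lay under 0.1 FPKM in both libraries, where values rest on few fragments. The promoter windows of Ucp2 and Ucp3 (GRCm38.p6, chr7:100493108-100493407 and chr7:100472741-100473040, plus strand) are shown because the genes adjoin and differ so widely in level. Capitals again mark CpG dinucleotides, of which Ucp2 has 21 and Ucp3 has 5.
Ucp2: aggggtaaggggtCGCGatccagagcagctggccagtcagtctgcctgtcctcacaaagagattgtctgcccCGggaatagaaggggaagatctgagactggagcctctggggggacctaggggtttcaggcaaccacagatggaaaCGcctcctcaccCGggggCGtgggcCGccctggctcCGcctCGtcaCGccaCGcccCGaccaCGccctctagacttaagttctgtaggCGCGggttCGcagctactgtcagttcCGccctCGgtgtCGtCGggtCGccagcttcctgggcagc
Ucp3: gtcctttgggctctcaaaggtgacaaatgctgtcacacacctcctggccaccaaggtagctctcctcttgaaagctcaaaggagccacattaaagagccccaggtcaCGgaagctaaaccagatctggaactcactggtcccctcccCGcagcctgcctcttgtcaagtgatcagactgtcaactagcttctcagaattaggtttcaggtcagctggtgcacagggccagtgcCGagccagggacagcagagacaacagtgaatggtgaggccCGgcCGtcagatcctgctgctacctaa

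Other adjoining carriers differed as well. The 47 genes lie on 19 chromosomes, and 4 neighbouring pairs are within 100000 bases of each other. Slc25a5, at 409 FPKM on average, lies 18448 bases from Slc25a43, which has no settled substrate and had 0.730 FPKM in replicate 1 and 0.503 FPKM in replicate 2. Slc25a29 and Slc25a47 on chromosome 12, transcribed in opposite directions, were closer in level, with means of 1.24 and 0.549 FPKM. The remaining pairs are Slc25a23 with Slc25a41 and Ucp2 with Ucp3.

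Promoter windows could be matched by symbol for 37 of the 47 carriers. The median number of CpG dinucleotides in 300 bases was 24 for the 27 matched carriers detected in both libraries (6 to 47) and 7 for the 10 others (1 to 22). Over protein-coding symbols the medians were 22 for the 8355 detected and 4 for the 6556 others, so carriers divided in the same direction as genes at large. The ranges overlap: Slc25a22 (6 CpG, mean 9.52 FPKM) and Slc25a14 (7 CpG, 3.11 FPKM) were detected, whereas Slc25a31 (22 CpG, 0.824 FPKM), Ucp1 (15 CpG, 0.0155 FPKM) and Slc25a48 (14 CpG, 0.0351 FPKM) were not. The exact motif TATAAA was searched on both strands over the whole window. It was in 1 of 37 carrier windows, that of Slc25a18, beside 12.9% of all protein-coding windows. Undetected genes carried it more often, with 1377 of 6556 protein-coding symbols, beside 542 of 8355 detected ones. Carriers had it in 0 of 27 detected and 1 of 10 other windows, too few to compare. Near matches were not counted, such as TATAAG in the windows of Slc25a4 and Slc25a5 shown above. A match describes letters, not binding.

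**Figure D4:**
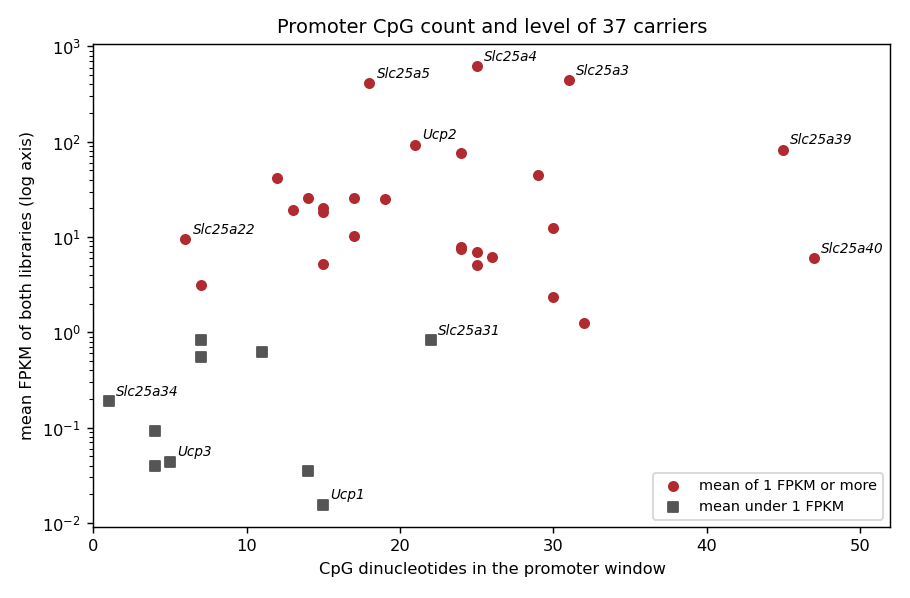
Mean FPKM of both libraries (log axis) against the number of CpG dinucleotides in the promoter window for 37 carriers, with circles for a mean of 1 FPKM or more and squares for lower means. Carriers under 1 FPKM have 1 to 22 CpG and the others 6 to 47.

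Of 7 carriers with another or no settled substrate, 1 was detected. Slc25a46, which acts in the shaping of mitochondria from the outer membrane, had 24.2 FPKM in replicate 1 and 24.0 FPKM in replicate 2. Slc25a45, Slc25a35, Slc25a43 and Slc25a47 had means between 0.549 and 0.827 FPKM, and Slc25a34 and Slc25a48 had means of 0.189 and 0.0351 FPKM. Slc25a35 overlaps Rangrf, on the other strand, by 1882 bases, and Rangrf had 16.2 FPKM in replicate 1 and 13.6 FPKM in replicate 2, so the low value of Slc25a35 is uncertain. In all, rows on the other strand overlapped 13 of the 47 carriers, but a partner of 1 FPKM or more did so for 5, namely Slc25a11, Slc25a35, Slc25a25, Slc25a36 and Slc25a26. Lrig1, at 9.86 FPKM in replicate 1 and 9.39 FPKM in replicate 2, overlaps Slc25a26 by 120 bases, and the antisense gene Gm16185, at 3.67 and 3.42 FPKM, overlaps Slc25a36 by 3285 bases. A stretch near-identical to another gene was found for 16 carriers, including those that overlap. Overlaps and copies were sought for carriers only, so no share of all protein-coding rows can be set beside these counts. Slc25a47 is known from liver, and none of 5 liver markers reached 1 FPKM in both libraries. The highest, Afp, had 0.858 FPKM in replicate 1 and 1.49 FPKM in replicate 2, and Alb had 0.577 and 1.12 FPKM.

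Relatives and partners outside the symbol rule were read from fixed lists, chosen with earlier results of these data known. Of all protein-coding rows, 52.2% were detected. The counts below describe these chosen genes and were not tested against that share. The family members named otherwise in the files were detected in 4 of 4 cases found, with Mtch1 at 165 ± 1.87 FPKM, Mtch2 at 81.2 ± 3.31 FPKM and Mcart1, a carrier of NAD, at 34.0 ± 0.180 FPKM in the higher of its 2 rows (SD, n = 2 each). Mtch1 and Mtch2 are outer membrane relatives. All 11 genes listed for import of carriers into mitochondria were detected, with a median of 31.7 FPKM. The translocase Timm22, which inserts carriers into the inner membrane, averaged 24.3 ± 0.952 FPKM. All 10 other listed transport genes were detected, from Mcur1 at 6.83 ± 0.649 FPKM to the outer membrane channel Vdac1 at 280 ± 0.772 FPKM. The pyruvate carrier subunits, which are no members of the family, were unequal in FPKM. Mpc2 stood at 56.5 ± 2.78 FPKM and Mpc1 at 9.61 ± 0.196 FPKM. Near-identical copies and overlaps were not sought for these subunits, so their levels were not checked for divided reads. Of 15 partner enzymes 14 were detected, and Gpd1 was the exception at 0.804 FPKM in replicate 1 and 0.682 FPKM in replicate 2.

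The libraries gave closely matching values for the family, as they did for protein-coding rows at large. Among carriers whose mean was at least 1 FPKM, 0 of 34 differed 1.5-fold or more between replicate 1 and replicate 2, beside 0.508% of protein-coding rows (60 of 11800). The median size of the log2 difference was 0.06 for these 34 carriers and 0.06 for all such rows. Of the 34, 18 (52.9%) were higher in replicate 1 and 16 in replicate 2, beside 69.4% of such rows higher in replicate 1 (8186 of 11800). After rescaling of the libraries by the median ratio of expressed genes, 14 carriers were higher in replicate 1 and 20 in replicate 2. The share of all such rows was not taken after rescaling, so these counts cannot be set beside 69.4%. An exact sign-flip test (two-sided) on 2 libraries cannot give a p below 0.5, and none was computed. The 13 carriers under 1 FPKM are outside this count, and some differed more in relative terms, as Slc25a21 (2.58-fold) and Slc25a48 (2.08-fold) did, both higher in replicate 1, in FPKM without a pseudocount.

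**Figure D5:**
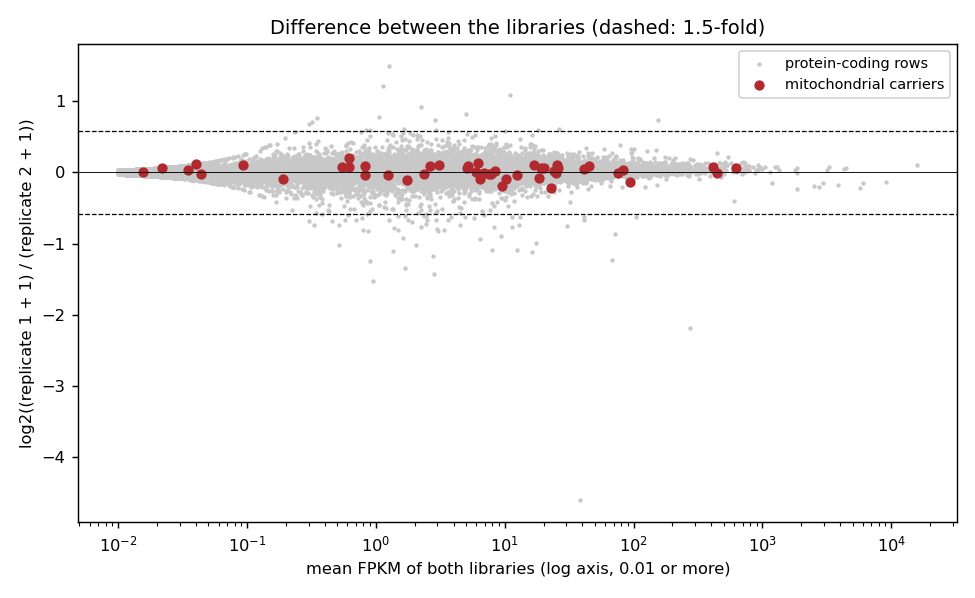
Log2 ratio of replicate 1 to replicate 2 (FPKM plus 1) against the mean FPKM of both libraries (log axis) for protein-coding rows (grey) and mitochondrial carriers (red), drawn from 0.01 FPKM upward. No carrier reaches the dashed lines at 1.5-fold.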

How the data were processed

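The 2 FPKM tables, 1 per sample, were used as deposited by the authors. GSNAP, Cufflinks and Cuffnorm are named per the submitters' processing notes, with the builds hg19 and mm9. Which annotation was used, whether strand was used, and how multiply matching reads were treated is not given in the sources used here. Coordinates are those of the files, on mm9. No count model was fitted, and absolute depth is unknown.

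The members, lists and pairs were chosen with earlier results of these data known. All members but 1, which is counted but not reported here by name, may be named, and other genes only from the fixed lists or where they overlap, copy or mark a member. Detection meant 1 FPKM or more in both libraries, and ratios used a pseudocount of 1 FPKM. Where a listed symbol had more than 1 row, the highest was used. Copies were sought with BLAST 2.17.0 in GENCODE M21 transcripts (98% identity, 75 bases or more). Promoters came from RefSeq on GRCm38.p6, the first listed per gene. Python 3.11.15, NumPy 2.4.6, pandas 2.3.3 and Matplotlib 3.10.9 were used.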

Additional observations from a re-analysis of the deposited data

How the results depend on the processing

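Detection of 34 carriers became 39 with a limit of 0.5 FPKM (83.0%, beside 56.2% of protein-coding rows) and 32 with a limit of 2 FPKM (68.1%, beside 47.9%), and it was 34 after rescaling. The median level, 6.92 FPKM, was 7.02 FPKM after rescaling and 6.88 to 6.96 FPKM with 1 library left out. The family share of 0.549% was 0.668% of protein-coding FPKM without genes of the mitochondrial genome and globins. The count of carriers that differed 1.5-fold between the libraries was 0 after rescaling, among carriers averaging at least 5 FPKM, and with a pseudocount of 0.1 FPKM. It was 0 with no filter too, but there the pseudocount of 1 FPKM keeps low genes from being counted. With no filter and a pseudocount of 0.1 FPKM together, chosen after the data were seen, it was 1, Slc25a21 (log2 0.62, higher in replicate 1). Of 24 pairs, 23 were past the spread between libraries, 22 to 23 with 1 library left out, and 22 of 23 without the pair whose second gene is at 0 (added after the data were seen), beside 90.2% of pairs of protein-coding rows above 0 FPKM. With a pseudocount of 0.1 FPKM all 24 ratios kept their sign, and those with a low gene grew, as the smaller pseudocount must make them: the log2 ratio of Ucp2 to Ucp3 was 9.34 and that of Slc25a4 to Slc25a31 was 9.40. Taking the most CpG-rich promoter of each gene, chosen after the data were seen, left the medians at 24 and 7. No paired analysis was possible because both libraries belong to 1 group. Values under 0.1 FPKM rest on few fragments, and no interval could be given without counts.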
